A study of Homo sapiens with 42 samples.

Results

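HAP1 cells labelled as lacking all of NEIL1, NEIL2 and NEIL3 (neil123) were compared with wild-type HAP1 cells (wt), both kept in media. The comparison holds 8 of the 42 libraries of the series, chosen by genotype, by the media treatment and by a sample name that ends in A or B. Of these, 4 are neil123 (lines 1 and 2) and 4 are wt (lines 1.1 and 1.3), with replicates A and B of each line. The same lines were also given 200 µM buthionine sulfoximine (BSO), a blocker of glutathione synthesis, for 48 h, begun after 4 h, which makes 4 neil123 and 4 wt libraries with BSO. For reference, levels are also given in media from 4 neil3 libraries of lettered names and from 3 neil1, 3 neil2 and 3 further wt libraries whose names carry no letter. Every group is HAP1. The labels do not say how the genes were disrupted or whether a line is 1 clone, and neil123 and wt rest on 2 lines each in the comparison (a further wt line, p1, is among the unlettered libraries). The lettered names call the libraries biological replicates without naming separate cultures, so a p-value here measures the spread between these libraries, which may be technical.

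NEIL1, NEIL2 and NEIL3 are DNA glycosylases. They cut oxidized bases out of DNA, the first step of base excision repair, and NEIL3 also unhooks crosslinks between DNA strands. HAP1 is an adherent, near-haploid human line derived from the KBM-7 chronic myeloid leukaemia line. A count of transcripts does not show DNA damage or repair, so what can be compared here is the RNA level of each gene.

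The table held 27381287 to 28784656 reads of each library, and 17861 to 18398 genes with reads in neil123 against 18410 to 18449 in wt. The share of the 10 most abundant genes was 4.93% to 4.98% in neil123 and 4.66% to 4.70% in wt, and that of mitochondrially encoded genes 1.84% to 2.55% and 2.17% to 2.66%. Of 23 blood cell markers in the table, 9 had a mean under 10 in neil123 and 8 in wt, among them the leukocyte genes PTPRC and VAV1, under 1 in both, while the others were above and the progenitor factors TAL1 and GATA2 exceeded 1000 in both. Their summed level was 5548 to 5831 normalized reads in neil123 and 5873 to 6038 in wt. Values below are the authors' normalized reads, in the order 1A, 1B, 2A, 2B for neil123 and 1.1A, 1.1B, 1.3A, 1.3B for wt. Differences are neil123 minus wt on the log2(value + 1) scale ± standard error. Adjusted p-values are from limma, over every gene tested, with a threshold of 0.05. Gene positions are those of RefSeq on GRCh38.p14.

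The targeted genes were examined first. NEIL2 (chr8:11769710-11787345) read 220.1, 217, 215 and 242 in neil123 and 409, 363, 381 and 425 in wt. The difference was -0.82 ± 0.09 (adjusted p = 6.25e-05, limma). NEIL3 (chr4:177309874-177371268) read 472, 438, 405 and 381 in neil123 and 589.7, 654, 671 and 646 in wt, a difference of -0.60 ± 0.08 (adjusted p = 0.000507, limma). For both genes every neil123 library lay below every wt library although reads of both remained in all 4. NEIL1 (chr15:75347039-75357115) read 842, 1071, 1072 and 962 against 788, 870.0, 774 and 975. Its groups overlapped, and the difference of 0.21 ± 0.09 did not pass (adjusted p = 0.24, limma). The RNA level thus gives no check of the NEIL1 part of the label.

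Among 14375 genes with a mean of 10 or more, 578 were higher in neil123 and 488 were lower, which is 7.42% of the genes tested (4.02% higher, 3.39% lower). Of these, 372 changed 2-fold or more (2.59%). Sizes ran from 0.14 to 8.01 on the log2 scale with a median of 0.68, and 403 of the 1066 calls were under 0.5 while 66 were 3 or more. The libraries of the genotypes did not overlap for 1027 of the called genes, against 12.9% of all genes tested. No single library ended the call for 684 of the 1066. The count was 554 without wt line 1.1 and 627 without wt line 1.3. Against all 7 wt media libraries of both kinds of name, 421 of the 578 higher genes had every neil123 library above every wt library, a pattern that 4.06% of all genes tested showed, and 408 of the 488 lower genes had every neil123 library below (4.37% of all genes tested). The median over all genes tested was -0.001, and chromosome medians lay between -0.027 and 0.022. The share of called genes was 12.7% on the X chromosome (67 of 528 genes), 12.4% on chromosome 18 and 4.26% on chromosome 16.

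The largest rise, that of CHMP4C, began from almost no RNA in wt. The gene (chr8:81732448-81759515) encodes a subunit of the ESCRT-III complex that cuts membranes at the end of cell division. It read 276, 245, 306 and 296 in neil123 and 1.02, 0, 2.02 and 3.94 in wt. Its 7 wt reads stood against 1115 in neil123, and the fitted difference was 6.91 ± 0.39 (adjusted p = 4.04e-07, limma). The other 14 tested members of the ESCRT-III list did not pass, and the median of the list was 0.05. PGR (chr11:101029624-101129813), the progesterone receptor, read 598, 551, 674 and 654 against 30.6, 28.4, 25.3 and 26.6. That is a rise of 4.43 ± 0.12 (adjusted p = 7.87e-10, limma), with a wt spread of only 2.29 normalized reads (SD, n = 4). DCAF12L2 (chrX:126163499-126166289), a WD-repeat protein encoded on the X chromosome, read 769.9, 642, 714 and 614 against 15.3, 10.8, 38.5 and 13.8, a rise of 5.22 ± 0.29 (adjusted p = 3.85e-07, limma).

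Genes of the cell surface and matrix were among the next. VCAN, the matrix proteoglycan versican (chr5:83471744-83582302), read 1147, 899.7, 865 and 775 in neil123 against 54.0, 32.3, 98.2 and 88.6 in wt, a difference of 3.85 ± 0.28 (adjusted p = 2.72e-06, limma). The membrane protein gene TMEM47 (chrX:34627075-34657285) read 4636, 5080.4, 5265 and 5867 against 516, 363, 428 and 214, or 3.84 ± 0.20 (adjusted p = 2.92e-07, limma). COL5A2, a fibrillar collagen chain (chr2:189031898-189441111), read 5168, 4268, 3135 and 2872 against 382, 128, 460.4 and 254, a difference of 3.76 ± 0.32 (adjusted p = 1.12e-05, limma). In these 3 genes the lowest neil123 library stood far above the highest wt library, although COL5A2 differed more than 2-fold between wt 1.1A and 1.1B. NRXN3 (chr14:78170373-79868291), a presynaptic adhesion protein, read 155, 130.5, 142 and 172 in neil123 and 22.4, 12.7, 15.2 and 5.91 in wt, 3.45 ± 0.30 (adjusted p = 1.54e-05, limma). Further rises of this size were seen in ARSL (4.22), an arylsulfatase, in PGM5 (3.38), a phosphoglucomutase relative found at cell adhesions, and in ANGPTL2 (3.31), a secreted angiopoietin-like protein. NOL4 (3.65), SELENBP1 (3.63) and KCTD11 (3.23) rose too (limma adjusted p of 3.92e-05, 0.000131 and 3.46e-05).

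**Figure D1:**
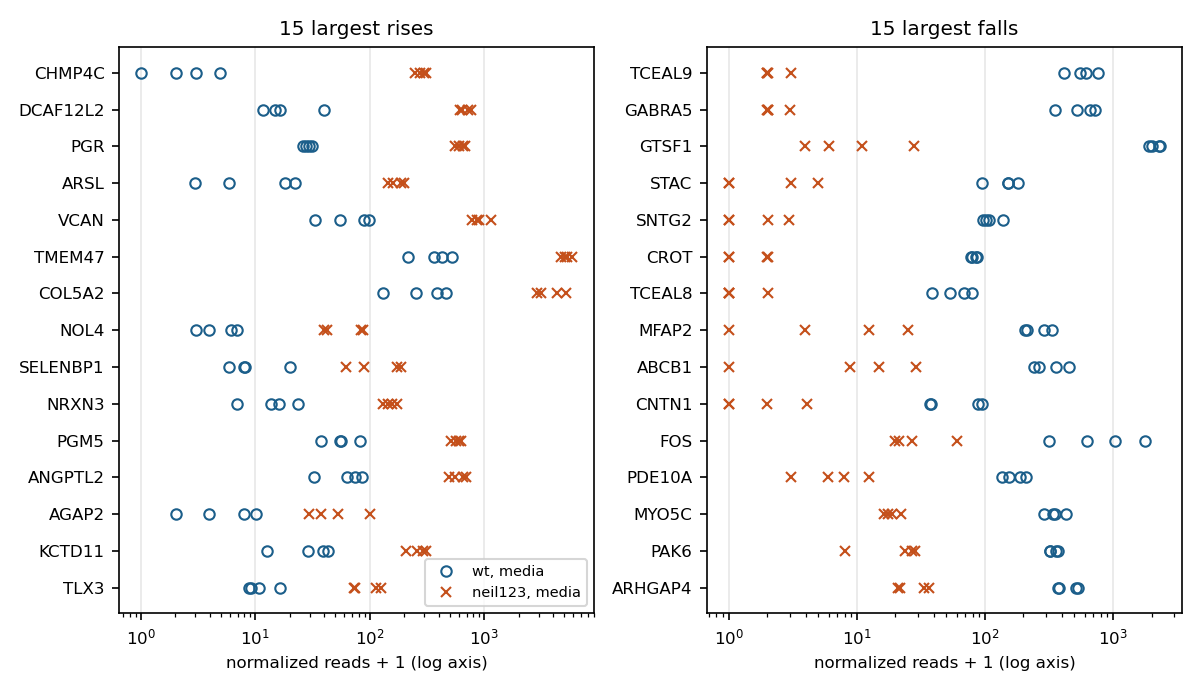
Normalized reads plus 1 (log axis) in each of the 4 wt libraries (circles) and 4 neil123 libraries (crosses) in media for the genes with the largest rises (left) and falls (right) by the naming rule. Crosses and circles do not overlap for any of these 30 genes, which the rule required.

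The largest falls ended near 0. TCEAL9 (chrX:103356506-103358462), a small nuclear protein of the TCEAL family on the X chromosome, read 0.996, 1.04, 0.987 and 2.03 in neil123 and 548, 416, 769 and 611 in wt. The neil123 libraries together held 5 reads of it, and the difference was -8.01 ± 0.23 (adjusted p = 1.34e-09, limma). TCEAL8 (chrX:103252995-103255155), from the same family and the same stretch of the X chromosome, read 0, 0, 0 and 1.02 against 78.4, 67.6, 52.6 and 37.4. It had 1 read in neil123 in all against 236 in wt, a wt to neil123 ratio of 236 (95% interval 41.9 to 9351), which covers counting error only. In the list of TCEAL, BEX and RTL8 genes, 4 of 15 tested members fell and 3 rose, with a median of 0.16. BEX4, for example, rose by 0.45 ± 0.07 (1534 ± 138 against 1123 ± 43.3, mean ± SD, n = 4, limma adjusted p = 0.00105). Members of this list resemble each other in sequence, and how reads matching several copies were counted is not given in the sources used here.

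GABRA5 (chr15:26866719-26949208), a subunit of the GABA-A receptor, read 1.99, 1.04, 0.987 and 1.02 in neil123 against 353, 526, 659 and 718 in wt, -7.94 ± 0.25 (adjusted p = 1.8e-09, limma). GTSF1 (chr12:54455957-54473602), a zinc finger protein that helps PIWI proteins silence transposons in germ cells, read 9.96, 26.9, 2.96 and 5.09 against 1919, 2029, 2347 and 2285. It fell by 7.85 ± 0.44 (adjusted p = 3.85e-07, limma) and its highest neil123 library, 1B, held 26.9. Among the other piRNA and germline genes, TEX15, a factor for transposon silencing in male germ cells, was lower (-0.36 ± 0.06, adjusted p = 0.00112, limma), and 8 of the 10 tested did not pass.

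CROT (chr7:87345664-87399794), the peroxisomal carnitine octanoyltransferase that passes shortened fatty acids out of the peroxisome, read 0, 0, 0.987 and 1.02 in neil123 and 83.5, 77.4, 86.0 and 77.8 in wt. With 2 reads in neil123 against 325, the wt to neil123 ratio was 162 (95% interval 44.6 to 1346), and the fitted difference was -5.86 ± 0.33 (adjusted p = 3.85e-07, limma). SNTG2 (chr2:950849-1367613), a syntrophin that links membrane proteins to the dystrophin complex, read 0, 0, 1.97 and 1.02 against 106, 137, 100.2 and 95.5, 3 reads against 440 and a ratio of 147 (95% interval 49.8 to 713). STAC (chr3:36380504-36548007), an adaptor of voltage-gated calcium channels, read 3.98, 2.07, 0 and 0 against 149.7, 93.1, 179 and 151, -6.15 ± 0.49 (adjusted p = 5.61e-06, limma). For these 3 genes no neil123 library reached 5, and the lowest wt library held 77.4 (CROT in 1.1B). ABCB1, the multidrug efflux pump (chr7:87503017-87713295), read 13.9, 28.0, 7.89 and 0 against 265, 453, 239.8 and 355, -5.34 ± 0.77 (adjusted p = 0.000764, limma). The myosin gene MYO5C (-4.24), the kinase gene PAK6 (-4.12), the phosphodiesterase gene PDE10A (-4.71) and the GTPase-activating protein gene ARHGAP4 (-4.02) fell as well (limma adjusted p of 1.2e-08, 5.53e-06, 3.87e-06 and 2.18e-07).

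In all, 13 genes were under 5 in every neil123 library and at 20 or more in every wt library, a pair of bounds chosen after the values were seen. They are BMP2, CNTN1, CROT, GABRA5, HAND2, SNTG2, STAC, TAFA4, TCEAL8, TCEAL9, THY1, TRHDE and TRPC4. THY1, a surface glycoprotein of stromal and neural cells, had 0 reads in the 4 neil123 libraries against 135 in wt, so its level was at least 45.0-fold lower at a floor of 3 reads over the group. Only CHMP4C and GRIA3 showed the opposite pattern under the same bounds. With BSO all 13 were again under 5 in every neil123 library, and of the other 2 genes GRIA3 stayed under 5 in every wt library while CHMP4C reached 8.74 in 1. In bulk RNA, fewer cells with a transcript and less RNA per cell cannot be told apart.

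Promoters of 2 X-linked and 2 other genes that fell by more than 5 on the log2 scale, and of PGR, are shown because they differ in their content of CpG, the dinucleotide at which vertebrate DNA is methylated. Methylation was not measured in these files. Each sequence gives the 250 bases before the RefSeq start (GRCh38.p14), 5′ to 3′ on the strand of the gene, with every CpG in capitals. The median over the 27305 promoters of the table was 11 CpG. CROT had 25 (chr7:87345414-87345663, plus strand), TCEAL8 14 (chrX:103255156-103255405, minus strand), TCEAL9 8 (chrX:103356256-103356505, plus strand), GTSF1 8 (chr12:54473603-54473852, minus strand) and PGR, which rose, 12 (chr11:101129078-101129327, minus strand). The PGR window lies inside the gene as positioned above, downstream of its outermost start. The other 4 windows end at the start of the gene.
CROT: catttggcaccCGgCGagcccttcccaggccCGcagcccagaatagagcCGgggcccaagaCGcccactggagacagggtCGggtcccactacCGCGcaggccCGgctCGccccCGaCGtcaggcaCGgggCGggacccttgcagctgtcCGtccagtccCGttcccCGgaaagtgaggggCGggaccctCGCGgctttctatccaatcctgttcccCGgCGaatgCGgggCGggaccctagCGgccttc
TCEAL8: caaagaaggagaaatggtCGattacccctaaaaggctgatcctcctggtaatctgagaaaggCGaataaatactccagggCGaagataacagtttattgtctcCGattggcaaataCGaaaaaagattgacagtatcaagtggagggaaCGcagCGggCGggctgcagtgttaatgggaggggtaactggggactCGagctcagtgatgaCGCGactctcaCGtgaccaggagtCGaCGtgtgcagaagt
TCEAL9: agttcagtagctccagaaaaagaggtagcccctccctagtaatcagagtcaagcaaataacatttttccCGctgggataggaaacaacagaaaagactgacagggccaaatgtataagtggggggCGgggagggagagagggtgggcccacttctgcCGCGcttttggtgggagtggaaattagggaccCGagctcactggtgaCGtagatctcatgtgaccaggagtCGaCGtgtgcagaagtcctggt
GTSF1: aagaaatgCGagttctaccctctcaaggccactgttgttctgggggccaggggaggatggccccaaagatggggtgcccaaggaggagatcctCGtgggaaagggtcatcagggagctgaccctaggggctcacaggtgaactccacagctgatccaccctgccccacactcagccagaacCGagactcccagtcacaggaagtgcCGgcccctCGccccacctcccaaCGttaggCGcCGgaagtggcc
PGR: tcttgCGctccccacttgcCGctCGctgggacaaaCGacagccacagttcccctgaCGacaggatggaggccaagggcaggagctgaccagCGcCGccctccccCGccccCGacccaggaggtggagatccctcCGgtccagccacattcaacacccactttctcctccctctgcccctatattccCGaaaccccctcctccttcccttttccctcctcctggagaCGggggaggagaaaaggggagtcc
The TCEAL8 and TCEAL9 windows share a run of 28 identical bases, which ends at the start of TCEAL8 and 6 bases before that of TCEAL9. The 4 genes that fell were chosen for their different CpG counts, so these counts give no result about the called genes. Only 76.3% of the tested genes had a promoter in the table, so no comparison of CpG content between called and other genes was made.

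The other genotypes place these levels. CHMP4C read 1.02 to 312 in the neil1 libraries, 249 to 302 in neil2 and 0 to 1.01 in neil3. Against neil3, which like neil123 has lettered names, it was higher in neil123 by 7.88 ± 0.29 (adjusted p = 1.04e-07, limma). PGR read 10.2 to 141 in neil1, 7.74 to 21.5 in neil2 and 2.08 to 17.1 in neil3, so every neil123 library was above every library of the single knockouts. GTSF1 stood at 2306 to 2571 in neil3 and 2719 to 2962 in neil2. In neil1 it ranged from 281 to 2679, and in neil123 it was lower than in neil3 (-8.04 ± 0.47, adjusted p = 4.06e-06, limma).

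TCEAL9 was near 0 in neil3 too (0 to 4.17), and GABRA5 was low there (0 to 18.1), whereas neil2 had 340.4 to 2723 and 47.4 to 276. TCEAL8 was at 1.93 to 8.15 in neil1, 0 to 1.93 in neil2 and 0 to 5.99 in neil3, all below the unlettered wt libraries (71.5 to 113). DCAF12L2 spread over 0.972 to 543 in neil3 and TMEM47 over 129.9 to 5091. In these 2 genes the neil3 libraries split by line, and the difference between neil123 and neil3 did not pass (adjusted p = 0.213 and 0.257, limma). For DCAF12L2 neil3 line 1 was the higher (543 and 451 against 3.13 and 0.972). For TMEM47 it was neil3 line 2 (4442 and 5091 against 296 and 129.9). CROT and SNTG2 kept 55.9 to 125 and 86.5 to 179 in neil3, and both were lower in neil123 than in neil3 (-5.94 ± 0.38 and -6.27 ± 0.41, limma adjusted p = 9.2e-06 and 1.03e-05). CROT read 136, 20.2 and 13.3 in neil1 and 92.8 to 155 in neil2. SNTG2 read 90.7 to 103 in neil1 and 17.4, 15.6 and 99.6 in neil2. The values of 20.2 and 13.3 (CROT) and of 17.4 and 15.6 (SNTG2) lay below every wt media library and above every neil123 library. The secreted protein gene TAFA5 read 0 to 2.91 in neil3 and 924, 590.1, 855 and 613 in neil123, the largest excess over neil3 by the naming rule (8.37 ± 0.38, adjusted p = 6.54e-07, limma).

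Over all genes, 722 differed between neil123 and neil3 in media (5.02% of 14392 tested), 421 higher (2.93%) and 301 lower (2.09%). The count was 478 without neil123 library 2A, 389 and 371 without neil123 line 1 or line 2, 1118 without neil3 line 2, and 72 with 1 mean per line. Since both comparisons use the same neil123 libraries, their lists were not compared.

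**Figure D2:**
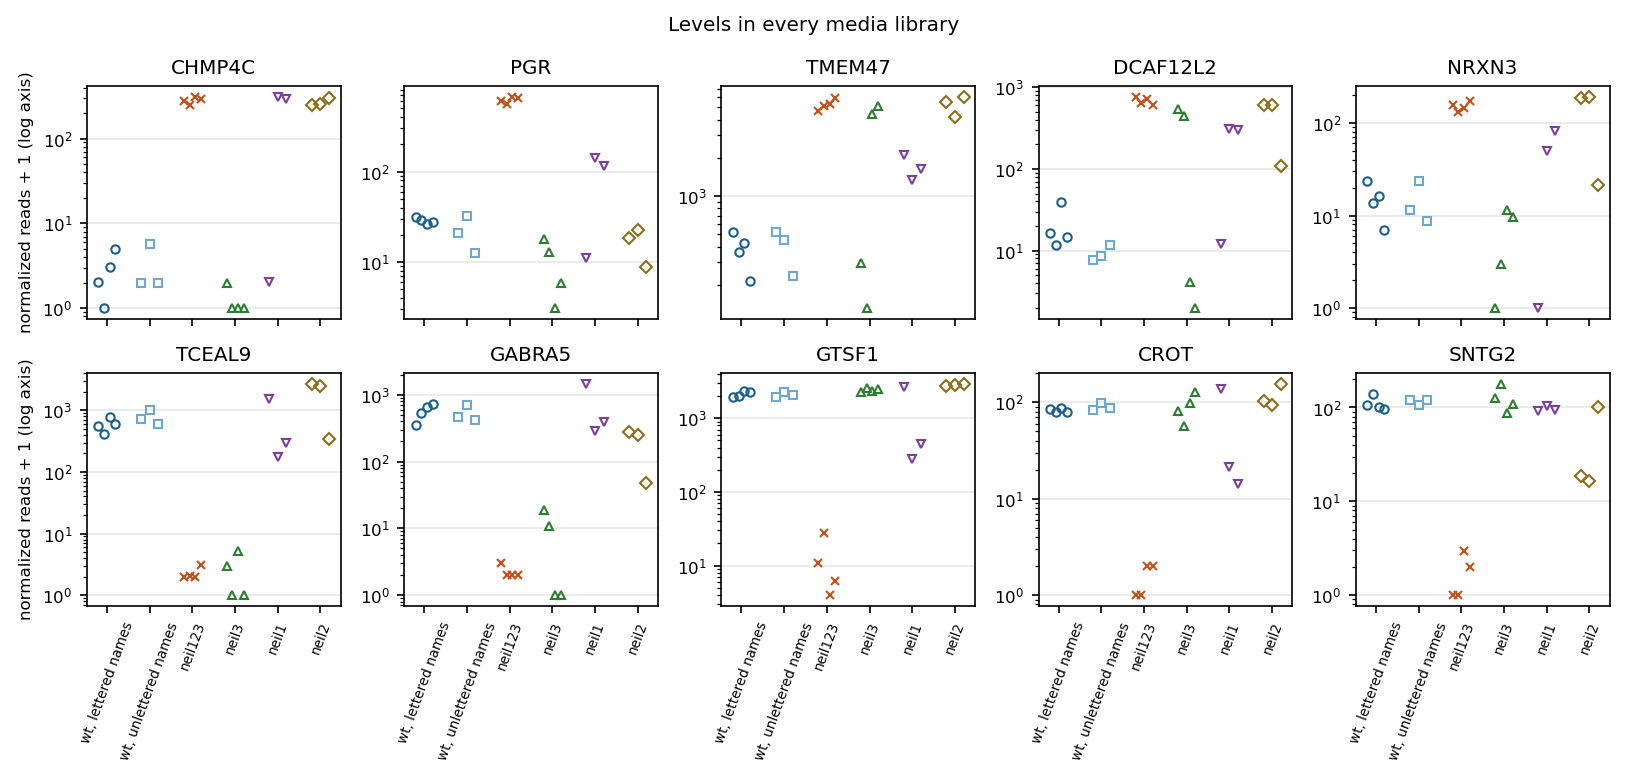
Normalized reads plus 1 (log axis) of 10 genes in every media library, with wt split by lettered and unlettered names. CHMP4C is near 0 in wt and neil3, TCEAL9 is near 0 in neil123 and neil3, and GTSF1, CROT and SNTG2 are lowest in neil123.

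Gene lists were read against the 7.42% of all genes called. Of 22 tested collagens 11 rose and 4 fell, with a median of 0.23, against a median of -0.001 over all genes tested. No single library ended the call for 9 of the rises and 3 of the falls. COL2A1, the cartilage collagen, rose from 10170.1, 10069, 10389.9 and 10921 in wt to 12142, 12206, 11544 and 12262 in neil123 (0.21 ± 0.04, adjusted p = 0.00708, limma). Among the basement membrane chains, 2 pairs of neighbouring genes were called, and COL18A1 fell alone (-0.22, adjusted p = 0.0372, limma). COL4A5 (0.41) and COL4A6 (0.56), neighbours on the X chromosome, rose (limma adjusted p = 0.0041 and 0.00381). COL4A3 (-1.03) and COL4A4 (-0.94), neighbours on chromosome 2, fell (limma adjusted p = 0.00115 and 3.8e-05). COL4A4, for one, read 318, 384, 366 and 369 in neil123 against 675, 803, 612 and 675 in wt, without overlap. The cartilage chains COL9A1 (1.71) and COL9A2 (0.85) rose (limma adjusted p = 0.000775 and 0.0142), though COL9A1 did not pass in the fit to all 42 libraries (adjusted p = 0.298, limma). Among laminins, integrins and other matrix genes 5 of 51 rose and 4 fell, with a median of 0.03. SPOCK1, a testican proteoglycan, rose by 1.85 ± 0.18 and LAMA4, a laminin chain, fell (-1.67 ± 0.20; limma adjusted p = 2.99e-05 and 0.000193).

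Neural progenitor and neuronal markers rose in 8 of 22 and fell in 2, with a median of 0.17, and 6 of the 8 rises were ended by no single library. The 2 falls were INA and GABRA5. GABRA5, given above, had the largest difference of the list (-7.94), beyond the largest rise (3.99). GAP43, a growth cone protein, read 277, 155, 209 and 212 in neil123 and 26.5, 16.7, 25.3 and 27.6 in wt (3.09 ± 0.21, adjusted p = 1.33e-06, limma). NES, the intermediate filament nestin, read 7817, 6045, 9399 and 8936 against 3888, 2725, 3960.5 and 3182 (1.22 ± 0.14, adjusted p = 0.000123, limma), and the proneural factor NEUROG2 rose from 173, 242, 155 and 212 in wt to 460.2, 485, 405 and 565 (adjusted p = 9.09e-05, limma). Summed over the 29 markers in the table, a neil123 library held 48955 to 54814 normalized reads and a wt library 41042 to 46858. The neural markers SOX3 and STMN4 were under 1 in neil123. Mesenchymal markers fell in 4 of 16 and rose in 1, the receptor PDGFRA (2431 ± 400.0 against 809 ± 343, 1.68 ± 0.25, adjusted p = 0.000894, limma), which did not pass in the 42-library fit (adjusted p = 0.124, limma). Their summed level was 27913 to 32045 in neil123 and 23385 to 27976 in wt. Epithelial markers fell in 2 of 10, EPCAM and CLDN1. CLDN1, a tight junction protein, read 48.8, 45.6, 47.4 and 32.5 against 166, 226, 217 and 320.0 (-2.37 ± 0.20, adjusted p = 9.63e-06, limma; 0.0918 in the 42-library fit). EPCAM (-2.12) lost its call without wt library 1.1A. Of 15 blood cell markers 3 fell and 1 rose, and the stem cell factor receptor KIT read 142, 171, 59.2 and 48.8 against 477, 398, 399.7 and 395 (-2.17 ± 0.33, adjusted p = 0.00109, limma). The part of other cell types or states in these results was not tested. Of 3 tested signs of stress or RNA quality, the nuclear noncoding RNA MALAT1 rose. It read 6426, 9087, 7996 and 7320.5 in neil123 and 5501, 6336, 6068 and 5792 in wt (0.37 ± 0.09, adjusted p = 0.0214, limma), and the call ended without wt 1.1A, wt 1.3B or neil123 2A and in the 42-library fit (adjusted p = 0.185, limma). NEAT1 (0.15) and HSPA6 (-0.65) did not pass (limma adjusted p = 0.382 and 0.597). The part of RNA quality in the changes of the gene lists was not tested.

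Signalling genes moved in both directions. In the BMP and TGF-beta list 4 of 33 rose and 3 fell (median 0.03). BMP7 read 1624, 1714, 1589.6 and 1888 in neil123 and 222, 262, 395 and 428 in wt, a rise of 2.43 ± 0.17 (adjusted p = 2.51e-06, limma). BMP2, another ligand of the same receptors, read 2.99, 2.07, 1.97 and 3.05 against 28.5, 73.5, 20.2 and 57.1, a difference of -3.54 ± 0.39 (adjusted p = 0.000105, limma). The 2 ligands therefore moved in opposite directions, with no overlap of libraries in either. In the WNT list 4 of 28 rose, among them the ligand WNT5A. It read 662, 663, 674 and 713 in neil123 against 379.9, 374, 483 and 464 in wt (0.68 ± 0.09, adjusted p = 0.000443, limma). The secreted antagonist SFRP1 fell (137 ± 28.9 against 403 ± 91.9, -1.54 ± 0.18, adjusted p = 0.00012, limma). Receptor tyrosine kinases rose in 9 of 32 and fell in 3, and the ephrin receptor EPHA3 read 1634, 1406, 1247 and 1139 against 725, 482, 890.4 and 649 (adjusted p = 0.00158, limma). No single library ended the call for 3 of the 9 rises and 2 of the 3 falls. Of 19 steroid receptors and partners 4 rose and 1 fell: beside PGR, the orphan receptor NR2F1 was higher by 0.54 ± 0.10 and the adipogenic receptor PPARG lower at -0.79 ± 0.12 (limma adjusted p = 0.00329 and 0.00114).

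Some changes fell on neighbouring genes of one cluster. Of 27 tested protocadherins, adhesion proteins encoded in arrays on chromosome 5 and elsewhere, 6 rose and none fell, with a median of 0.30, and no single library ended 5 of the 6 calls. PCDHB5 (chr5:141135206-141138615) read 731, 577, 702 and 652 in neil123 against 207, 185, 188 and 195 in wt (1.77 ± 0.09, adjusted p = 2.17e-07, limma). PCDHB3 (chr5:141100473-141103827) rose by 1.84 ± 0.22 (adjusted p = 0.000177, limma). PCDHB2 (chr5:141094615-141098703) was higher by 2.26 ± 0.29 (adjusted p = 0.000312, limma), which did not pass in the 42-library fit (adjusted p = 0.136, limma). PCDHB genes are close copies of each other, so reads could be split among them. In the HOX list 3 of 33 rose and 3 fell (median -0.04). The 3 that fell, HOXC9, HOXC10 and HOXC11, lie in a row on chromosome 12. HOXC10 (chr12:53985146-53990279) read 49.8, 41.4, 44.4 and 30.5 against 136, 149, 127 and 145 (-1.74 ± 0.16, adjusted p = 2.69e-05, limma), HOXC9 differed by -3.39 ± 0.43 and HOXC11 by -1.98 ± 0.21 (limma adjusted p = 0.000323 and 7.21e-05). Calls of the 3 HOX genes that rose, HOXB13, HOXD10 and HOXD11, were each lost when 1 library was left out.

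**Figure D3:**
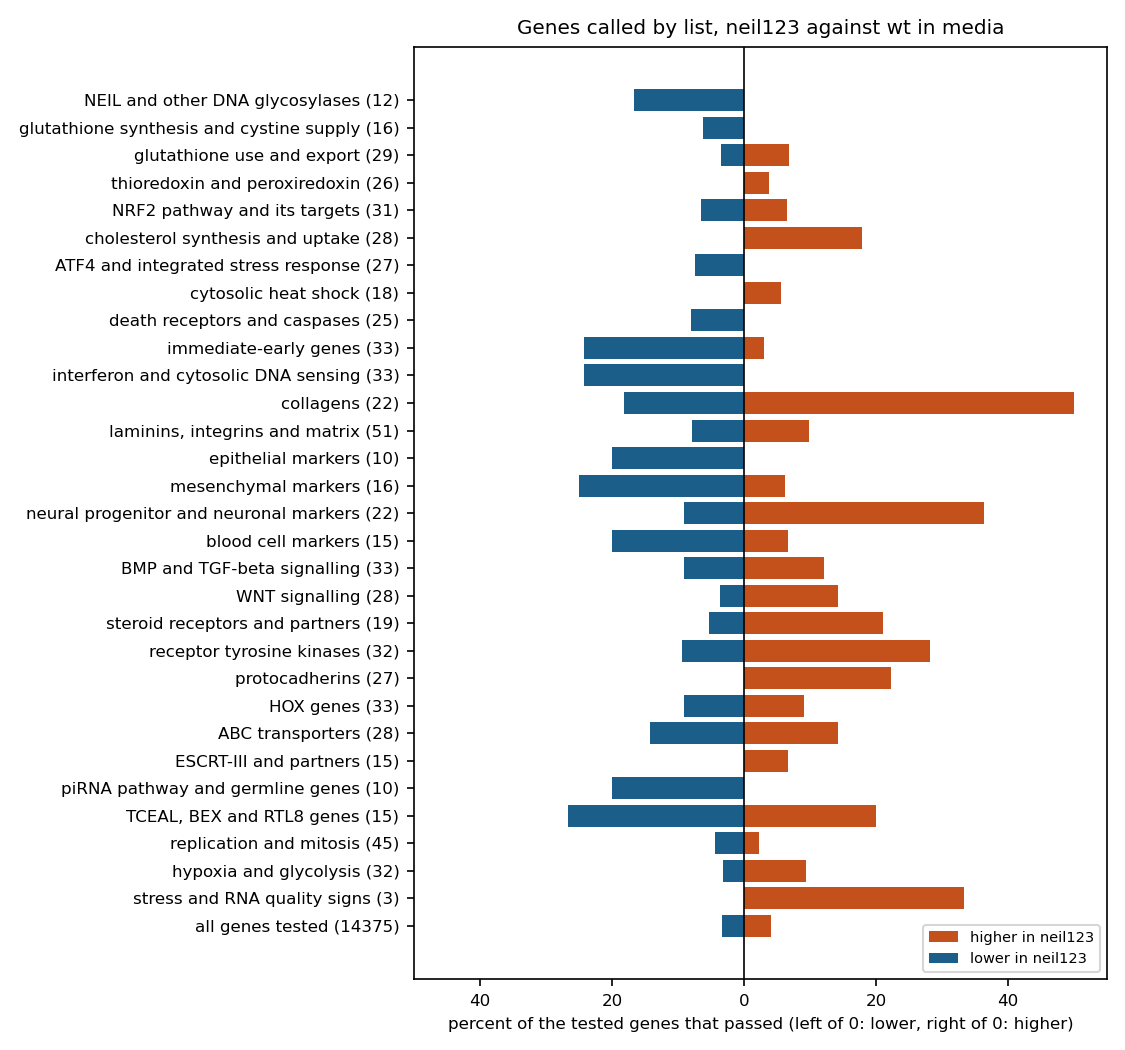
Percent of the tested genes of each list that passed the threshold in neil123 against wt in media, higher to the right and lower to the left of 0, with the number tested in brackets. Lists with no call and 1 list not reported here are left out, and the bottom bar gives all 14375 genes; collagens reach 11 of 22 higher.

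Immediate-early genes, which cells switch on within minutes of a growth or stress signal, fell in 8 of 33 and rose in 1 (FOSL2), with a median of -0.19. FOS, a subunit of the AP-1 transcription factor, read 59.8, 25.9, 18.7 and 20.3 in neil123 against 1789, 1031, 629 and 314 in wt (-4.76 ± 0.47, adjusted p = 3.46e-05, limma). Its wt libraries spanned a more than 5-fold range and still all stood above neil123. In the 3 unlettered wt media libraries, however, FOS read 30.7 to 40.5, within the neil123 range. EGR1, a zinc finger transcription factor, read 191, 160.5, 122 and 89.5 against 667, 370.3, 312 and 176 (-1.33 ± 0.33, adjusted p = 0.0297, limma), and 146 to 182 in the unlettered wt libraries, so that it overlapped with both. Its call ended without wt 1.1A or 1.1B or without neil123 2A or 2B.

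FOSB, a relative of FOS, read 40.8, 47.6, 37.5 and 44.8 against 593, 238, 87.0 and 72.9 (adjusted p = 0.0307, limma), with 57.4 to 77.7 in unlettered wt. Leaving out wt 1.1B or any neil123 library ended that call. NR4A2, an orphan nuclear receptor, read 84.7, 104, 107 and 173 against 229, 431, 195 and 302 (-1.29 ± 0.25, adjusted p = 0.00602, limma). Its unlettered wt libraries (220.3 to 305) were all above neil123, and its adjusted p was 0.0695 without neil123 line 1. ARC, a synaptic early gene, read 46.8, 52.8, 53.3 and 53.9 against 92.7, 91.1, 99.2 and 96.5 (-0.86 ± 0.13, adjusted p = 0.00112, limma). MALAT1, given above among the signs of RNA quality, differed by 0.37 in the same libraries. Of the 8 falls, no single library ended 4 (FOS, NR4A2, KLF2 and ARC), and 4 lay below every wt library of both kinds of name (FOSB, EGR2, NR4A2 and ARC).

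The promoters of FOS, FOSB and EGR1 are shown because these genes fell together in the lettered comparison. Capitals mark the CArG box, the site of serum response factor, and TGACG, the core of the cAMP response element, searched on both strands. A CArG box was found in 1.14% and a TGACG in 21.7% of the 27305 promoters of the table. The windows are those of 250 bases before the RefSeq start on GRCh38.p14: FOS at chr14:75278578-75278827, plus strand, FOSB at chr19:45467746-45467995, plus strand and EGR1 at chr5:138465229-138465478, plus strand.
FOS: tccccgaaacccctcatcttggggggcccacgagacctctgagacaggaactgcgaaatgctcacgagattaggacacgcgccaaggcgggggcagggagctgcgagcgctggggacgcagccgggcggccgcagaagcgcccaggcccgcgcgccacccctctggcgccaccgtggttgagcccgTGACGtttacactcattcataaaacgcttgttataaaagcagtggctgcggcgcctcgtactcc
FOSB: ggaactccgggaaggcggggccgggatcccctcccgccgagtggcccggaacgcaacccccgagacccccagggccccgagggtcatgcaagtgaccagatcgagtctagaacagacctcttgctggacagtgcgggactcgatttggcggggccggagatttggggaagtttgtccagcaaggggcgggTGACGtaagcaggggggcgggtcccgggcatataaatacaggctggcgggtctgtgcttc
EGR1: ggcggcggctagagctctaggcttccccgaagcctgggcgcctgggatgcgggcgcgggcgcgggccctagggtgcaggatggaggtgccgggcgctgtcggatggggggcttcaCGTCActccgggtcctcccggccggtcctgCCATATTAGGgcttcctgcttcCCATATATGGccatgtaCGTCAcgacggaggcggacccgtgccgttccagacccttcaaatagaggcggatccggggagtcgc
EGR1 held 2 CArG boxes and 2 TGACG matches, and FOS and FOSB 1 TGACG each and no CArG box in this window.

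**Figure D4:**
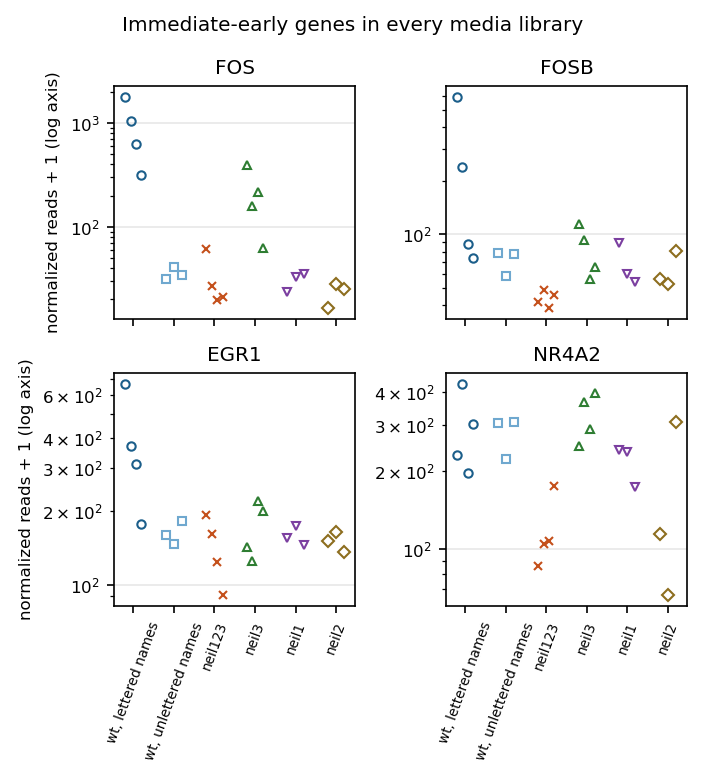
Normalized reads plus 1 (log axis) of FOS, FOSB, EGR1 and NR4A2 in every media library by genotype, with wt split by lettered and unlettered names. FOS in the unlettered wt libraries (30.7 to 40.5) is level with neil123, while the lettered wt libraries lie at 314 or more.

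Interferon and DNA-sensing genes fell in 8 of 33 and none rose, with a median of -0.12. STING1, the adaptor that relays cytosolic DNA signals, read 28.9, 38.3, 77.0 and 80.4 in neil123 and 166, 145, 152 and 170.3 in wt (-1.61 ± 0.28, adjusted p = 0.00304, limma). IFITM2, a membrane protein that blocks virus entry, read 13.9, 13.5, 10.9 and 22.4 against 44.8, 76.4, 51.6 and 56.1 (-1.87 ± 0.25, adjusted p = 0.000507, limma). These were the 2 of the 8 calls that no single library ended. CGAS, the DNA sensor upstream of STING1, read 617, 661, 447 and 451 against 567, 536, 528 and 582 and did not pass (-0.05 ± 0.12, adjusted p = 0.888, limma). ISG15, HLA-B, PSMB8, TRIM25 and IFITM1 were among the other falls, with differences from -0.18 to -1.03.

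Repair genes downstream of the glycosylases gave no call. None of 20 genes of base excision repair after the glycosylase, of 30 crosslink and recombination genes and of 12 TET and DNA methyltransferase genes passed, with medians of -0.003, 0.003 and -0.016. At the DNA glycosylases, only NEIL2 and NEIL3 passed, of 12. In the glutathione synthesis list, 1 of 16 passed, the glutathione-degrading enzyme CHAC1 (-0.57, adjusted p = 0.048, limma), whose call 6 of the 8 leave-1-out fits ended. GCLC, the catalytic subunit of the first enzyme of glutathione synthesis, read 1716, 1678, 2033 and 1860.4 against 1577, 1402, 1673 and 1440.3 (0.26 ± 0.07). It did not pass (adjusted p = 0.0549, limma) but did with the letters A and B as a block (adjusted p = 0.0172). The differences of SLC7A11 (-0.13), GSR (0.07), GPX4 (0.05), GCLM (-0.11) and GSS (-0.08) had limma adjusted p of 0.48 to 0.665. None of 28 ferroptosis genes passed.

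Of the genes that use glutathione, 2 of 29 rose and 1 fell, against 4.02% and 3.39% of all genes tested. GSTM2, a glutathione transferase, read 173, 141, 296 and 234 in neil123 against 61.1, 58.8, 64.8 and 53.2 in wt (1.76 ± 0.20, adjusted p = 0.000125, limma). Its neighbour on chromosome 1, GSTM3, read 413, 362, 462 and 449 against 113, 98.0, 156 and 135 (1.76 ± 0.14, adjusted p = 6.4e-06, limma; 0.0587 in the 42-library fit). Both pairs of groups were well apart, and GSTM genes resemble each other in sequence. In the NRF2 list 2 of 31 rose and 2 fell. NQO1, the quinone reductase, read 4761, 4529, 4394 and 3902 against 3460.0, 2416, 3984 and 2943 (0.48 ± 0.12, adjusted p = 0.0332, limma), a call that ended without wt 1.3B or without neil123 1A, 1B or 2A. The heme oxygenase HMOX1 was lower (-0.37 ± 0.10, adjusted p = 0.0345, limma), and 6 of the 8 leave-1-out fits ended that call.

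Cholesterol synthesis genes rose in 5 of 28 and none fell (median 0.14). HMGCS1, which makes the precursor of mevalonate, read 6000.2, 5326, 6596 and 6528 in neil123 and 4792, 4285, 4909.6 and 4199 in wt (0.43 ± 0.07, adjusted p = 0.00275, limma). INSIG1, ACAT2, SQLE and LSS rose by 0.17 to 0.27, and among the 5 the calls of HMGCS1 and INSIG1 were ended by no single library. INSIG1 did not pass without wt line 1.3 (adjusted p = 0.0949, limma). In the unlettered wt libraries INSIG1 read 2142 to 2456, above every neil123 library (1858 to 2005). HMGCS1 read 5166 to 5427 there and overlapped with neil123. Only 2 of the 5 rises, ACAT2 and LSS, lay above every wt library of both kinds of name. With BSO, 17 of the 28 were higher in neil123 than in wt and none lower, against 6.27% of all genes higher there. The difference between the conditions passed for none of them in the fit that did not pair libraries.

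The cell cycle inhibitor gene CDKN1A read 371, 155, 519 and 221 against 240.4, 189, 221 and 204 and did not pass (adjusted p = 0.487, limma). Of 45 replication and mitosis genes 1 rose and 2 fell, a share near the 7.42% of all genes tested. Another such inhibitor, CDKN2C, was higher (2723 ± 103 against 2255 ± 78.5, mean ± SD, n = 4 and 4, 0.27 ± 0.05, adjusted p = 0.00261, limma). None of the 17 BCL2 family genes, 13 mitochondrially encoded genes, 20 endoplasmic reticulum chaperones or 15 fatty acid synthesis genes passed.

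Abundant genes gave smaller but tight differences. GFM1 (chr3:158644527-158695581), an elongation factor of mitochondrial translation, read 6032, 5766, 5584 and 5755 in neil123 and 2797, 2371, 3016 and 2471 in wt (1.12 ± 0.07, adjusted p = 6.64e-07, limma). The ubiquitin-binding protein gene ZFAND5 read 20066, 18479, 18219 and 18027 against 12166, 12271, 13009 and 11602 (0.61 ± 0.05, adjusted p = 7.27e-06, limma). MPDZ, a scaffold of cell junctions, read 3402, 2889, 2483 and 2358 against 1318, 845, 1172 and 789.6 (1.45 ± 0.16, adjusted p = 8.06e-05, limma). All these ranges were separate by a wide margin. Among falls, the polarity protein gene LIN7A read 1094, 1241, 1275 and 1317 against 2121, 2226, 2193 and 2043 (-0.80 ± 0.06, adjusted p = 4.6e-06, limma), and UTRN, which encodes utrophin, differed by -0.56 ± 0.05 (adjusted p = 2.63e-05, limma). The anion exchanger SLC4A2 (0.57), the WNT co-activator BCL9L (0.87), the semaphorin receptor PLXNC1 (1.05), SHISA3 (0.71) and the channel protein PANX2 (0.54) rose (limma adjusted p of 1.03e-05, 3.31e-05, 4.82e-06, 3.46e-05 and 0.000108).

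The 4 neil123 and 4 wt libraries with BSO share no library with those in media, although the lines are the same. Each BSO library also correlated with the media library of its name after group means were removed (r of 0.459 to 0.732). The BSO libraries are therefore not an independent check of the media calls. There, 903 of 14394 genes were higher in neil123 (6.27%) and 696 lower (4.84%), 1599 in all. The count was 1033 without wt library 1.3B, 765 without wt line 1.1 and 671 without wt line 1.3. Of the genes called in media, 863 were called in the same direction with BSO, which is 81.0% of the media list and 54.0% of the BSO list. The sign was the same for 1059 of the 1062 media calls tested with BSO. Among the 372 changes of 2-fold or more in media, 323 were also called at 2-fold or more in the same direction with BSO, where 2.74% of all genes were called at that size. CHMP4C differed by 6.07 ± 0.55 with BSO, PGR by 4.63 ± 0.16, TCEAL9 by -8.88 ± 0.35 and GTSF1 by -7.50 ± 0.32 (limma adjusted p = 1.76e-05, 2.35e-08, 3.58e-08 and 5.71e-08). FOS was at 39.1 ± 19.2 against 300.0 ± 198 (mean ± SD, n = 4), a difference of -2.76 ± 0.44 (adjusted p = 0.00138, limma), and EGR1 at -0.49 ± 0.17 did not pass (adjusted p = 0.0903, limma), though it did with the letters as a block (adjusted p = 0.0165, limma).

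The difference between the conditions was tested directly, in 1 limma fit to the 16 libraries. No gene passed (0.00%), and 345 of 14384 had an unadjusted p under 0.05. That fit did not use the pairing of BSO and media libraries of the same name. With a block that pairs each BSO library with its media library, 8 genes passed, 4 in each direction. In that paired fit 1441 genes had an unadjusted p under 0.05 (limma). For FOS the difference between the conditions was 1.99 ± 0.73 in the fit without the pairing (adjusted p = 0.9996, limma).

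**Figure D5:**
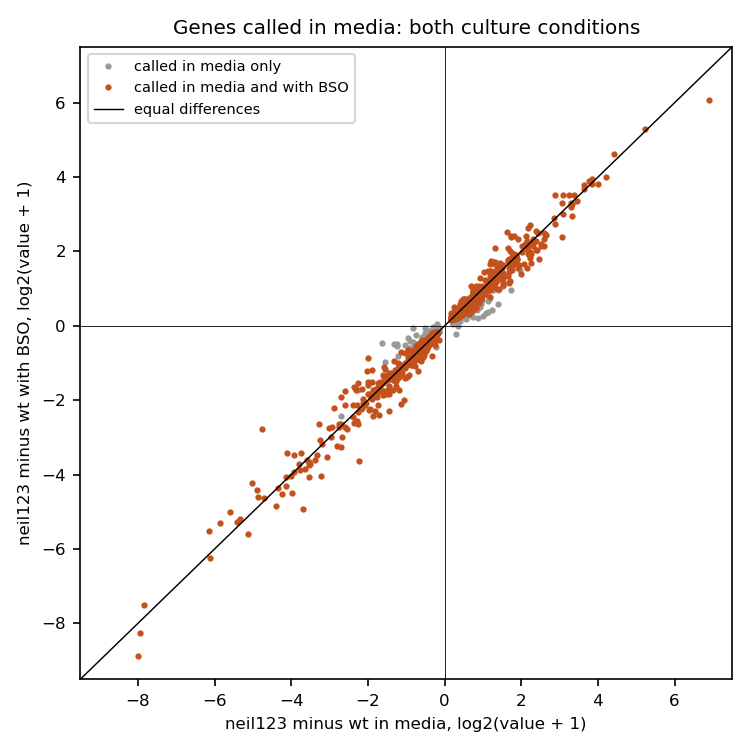
Difference between neil123 and wt (log2(value + 1)) in media on the x axis and with BSO on the y axis for the genes called in media, each point a gene. Points lie along the line of equal differences, and 863 of them (orange) passed in the same direction with BSO.

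The 2 neil123 lines were compared next. For the 1066 called genes, whose selection with both lines favours agreement between them, the lines differed from each other by less than 0.5 on the log2 scale for 871 and by 1 or more for 68. Tested directly, 65 of 14375 genes differed between line 1 and line 2 (0.452%), 44 higher (0.306%) and 21 lower (0.146%) in line 1, of which 23 were also called against wt. The count of 65 ranged from 22 to 156 over the fits that left out 1 library and was 439 with the letter as a block. ZNF492, a zinc finger gene, read 2.99, 3.11, 123.3 and 118, against 129, 113, 118 and 105 in wt. Line 1 was lower than line 2 (-4.91 ± 0.23, adjusted p = 2.92e-06, limma), and only line 2 lay at the wt level. HCLS1, a cortactin relative of blood cells, read 81.7, 92.1, 8.88 and 12.2 against 308, 282, 296 and 274 in wt, so that both lines were below wt and line 2 was the lower (2.94 ± 0.20, adjusted p = 4.92e-05, limma). CDA, cytidine deaminase, read 105, 107, 15.8 and 9.15 against 133, 97.0, 91.1 and 74.8, with line 1 at the wt level and line 2 below it (3.03 ± 0.28, adjusted p = 0.000412, limma).

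CYTOR, a long noncoding RNA, read 133, 100.4, 18.7 and 11.19 against 41.8, 39.2, 56.7 and 36.4. Line 1 was above wt and line 2 below it (2.91 ± 0.32, adjusted p = 0.00144, limma), and the difference of all 4 libraries from wt did not pass (adjusted p = 0.982, limma). MFAP2, a microfibril protein, read 23.9, 11.4, 2.96 and 0 against 204, 211, 333 and 288, with line 2 the lower of the 2 lines (3.14 ± 0.53, adjusted p = 0.0282, limma). Between the wt lines 1.1 and 1.3 no gene passed (limma, 0.00%; 222 genes at an unadjusted p under 0.05), and 12 did with the letter as a block.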

How the data were processed

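RNA was measured in 42 libraries of HAP1 cells, of which the 8 neil123 and wt media libraries with lettered names are compared. The values are the authors' deposited normalized signal, 1 value per gene and library. The submitters' processing notes name Trim Galore, HISAT2 and SAMtools, the build GRCh38 (hg38), featureCounts for the gene counts and DESeq2. Not given in the sources used here are the strand setting and the treatment of reads with several matches. Per the labels' protocols, total RNA was purified and libraries followed standard Illumina protocols. The deposited table held 30182 entries, 20515 with a symbol; those without took 1.04% to 1.25% of the reads of the 8 libraries and were not tested. The values of a column were whole multiples of 1 step, its read unit, in 100% of cases (tolerance 1e-06), and 1 read was worth 0.98 to 1.04. Replicate pairs gave a chi-square of 3.81 to 19.4 per degree of freedom, above counting noise.

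The test was limma 3.58.1 (R 4.3.3) with an intensity trend on log2(value + 1), fitted to the libraries compared, for genes with a mean of 10 or more, with Benjamini-Hochberg adjustment over all of them and a threshold of 0.05. This scale understates the change of low genes. Alternatives were pseudocounts of 0.5 and 5, a filter at 50 or none, equal totals, each library or line left out, the letter or line as a block, 1 mean per line, fits to 24 or 42 libraries, and edgeR 4.0.16 and DESeq2 1.42.0 on the recovered reads, which called 1068 and 1308 genes. Line as a random block together with the letter was added after seeing the data. The letters pair libraries: differences between A and B correlated across lines of the genotypes with r of 0.237 to 0.337 over 12282 genes, and each BSO library with the media library of its name (r of 0.459 to 0.732), and the labels give no reason. The fit was tested on simulated data.

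Members, lists and naming rules were chosen with earlier results of these data known. Named are the NEIL genes, the 15 largest rises and falls in which the higher group averaged at least 50, with no overlap and a call that no single library ended, up to 4 called genes per list by size, 12 fixed genes, the 10 called genes of mean 1000 or more with the smallest adjusted p, and the 6 largest between lines and 6 highest and 6 lowest against neil3. Other called members of a list are named to complete it and were chosen after their values were seen. Intervals cover counting error only. Promoter sequences are from RefSeq (GRCh38.p14). A few genes and 1 gene list are not reported here.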

Additional observations from a re-analysis of the deposited data

Results flagged for a closer look

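Each of 106 groups of 4 values (library measures, the NEIL genes and the other first-named genes) was examined for a library far from the other 3, and 6 were found, where chance alone marks about 1 group in 20. The lowest neil123 library had 1.84% of its reads in mitochondrially encoded genes. In wt, the highest library held 38.5 normalized reads of DCAF12L2 and 19.2 of SELENBP1, both still far below neil123. In neil123, the highest library held 2.03 of TCEAL9, 1.99 of GABRA5 and 1.02 of TCEAL8, each a matter of 1 or 2 reads.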

How the results depend on the processing

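Of 25 alternatives to the count of genes called between neil123 and wt in media (1066), 23 stayed within 1.5 times of it. The range was 784 to 1103 with 1 library left out, and the count fell to 554 without line 1.1 of wt and 627 without line 1.3 of wt. The letter as a replicate block raised it to 1420, less than 1.5 times. With BSO (1599 genes) the range with 1 library left out was 1033 to 1371, and the counts were 765 and 671 without wt line 1.1 or 1.3. For the difference between the conditions the count stayed at 0 in every alternative but the replicate block of line and letter, which gave 8. Against neil3 (722) it ran from 478 to 824 with 1 library left out, and was 1118 without neil3 line 2, 389 without neil123 line 1, 371 without neil123 line 2 and 72 with 1 mean per line. Between the neil123 lines (65) the range was 22 to 156 (155 without wt 1.1A and 37 without neil123 2A among them), with 43 at a mean of 50 or more, 32 with no filter and 439 with the replicate block. Between the wt lines (0) it was 0 to 6, and 12 with the block. The causes were not tested. Of single genes, CYTOR turned to 1.41 in media without line 2 of neil123 and to -1.28 with BSO without line 1, and FOLH1 to -1.35 with BSO without line 2. Among the single genes refitted under each alternative, the replicate block ended no call, and it added those of GCLC in media and of EGR1, NQO1, TRIB3, LOXL4, GCLM and GSR with BSO. Depth limits the ratios given for TCEAL8, CROT and SNTG2, which rest on 1 to 3 neil123 reads.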
